A study of Rattus norvegicus with 16 samples.

Results

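The 9 genes described here encode the machinery by which the proximal tubule takes filtered albumin and other small proteins back from the urine and breaks them down: Lrp2, Cubn, Amn, Dab2, Lrpap1, Clcn5, Fcgrt, Ctsb and Ctsl. They were chosen by name, as 9 of the 35849 genes in the deposited expression table, and all 9 were detected in every rat. RNA was sequenced from kidneys of 16 male Sprague Dawley rats, 6 to 8 weeks old at the start, with 4 rats in each of 4 groups. The normal group received citrate buffer and a normal diet. The DN (diabetic nephropathy) group received streptozotocin (STZ), a toxin of the insulin-producing beta cell, at 45 mg/kg, a diet rich in glucose and fat, and vehicle given daily by gavage over 8 weeks. The other groups received the same STZ dose and diet and, in place of vehicle, the same course of gavage with sinomenine (SIN), an alkaloid of Sinomenium acutum, at 20 mg/kg (SIN20) or at 40 mg/kg (SIN40). STZ-treated rats entered the study only if their blood glucose was over 16.7 mmol/L 1 week after injection, and no gavage is described for the normal rats. Thus STZ, diet, gavage and this selection cannot be told apart in any comparison with the normal group. Library serial numbers follow one another inside a group, so any order of library preparation cannot be told apart from the condition either.

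Megalin (Lrp2) is a very large scavenger receptor of the apical membrane, and cubilin (Cubn) is a peripheral receptor that reaches the surface only in complex with amnionless (Amn). Cargo bound by these receptors enters through clathrin-coated pits with the adaptor Dab2, meets falling pH in endosomes that need the chloride-proton exchanger ClC-5 (Clcn5), and is degraded by lysosomal proteases such as cathepsin B (Ctsb) and cathepsin L (Ctsl). The chaperone RAP (Lrpap1) escorts megalin through the secretory pathway, and the neonatal Fc receptor (Fcgrt) salvages albumin and IgG from degradation. Loss of megalin, cubilin, amnionless or ClC-5 is known to cause the loss of small proteins into the urine.

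Each rat had a total of 19616312 to 25217030 estimated counts, and a single value of the 9 genes was between 992 and 60946 counts, so counting error was small beside the spread between rats. Levels are CPM values, in which each rat's counts are put on one library size, scaled with the TMM factors of the 16 rats. Log2 fold changes, their standard errors (SE) and p-values are those of edgeR's quasi-likelihood test on the 8 rats of a comparison. Its p-values are two-sided, and the adjustment for all genes tested was that of Benjamini and Hochberg. Of 15 proximal tubule markers, all were detected, and Slc34a1, the phosphate transporter of the brush border, was between 3487 and 5321 CPM in normal rats. In whole kidney tissue, fewer proximal tubule cells and less RNA per cell cannot be told apart.

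Between the DN and normal groups, 1 of the 9 genes changed at an adjusted p under 0.05, and that gene was Clcn5, which was lower in DN. The background was 19.5% of the 15775 genes tested, made up of 10.8% lower and 8.74% higher in DN. None of the 9 reached a log2 fold change of 1 in size as well, a threshold that 3.8% of all genes passed. The median log2 fold change of the 9 genes was -0.09, beside a median near 0 over all genes tested, and 4 of the 9 values were above 0. The values differed between genes of the same route: Cubn and Ctsl had higher means in DN, Clcn5, Dab2 and Lrp2 had lower means, and Fcgrt, Lrpap1, Amn and Ctsb lay close to the normal level.

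**Figure D1:**
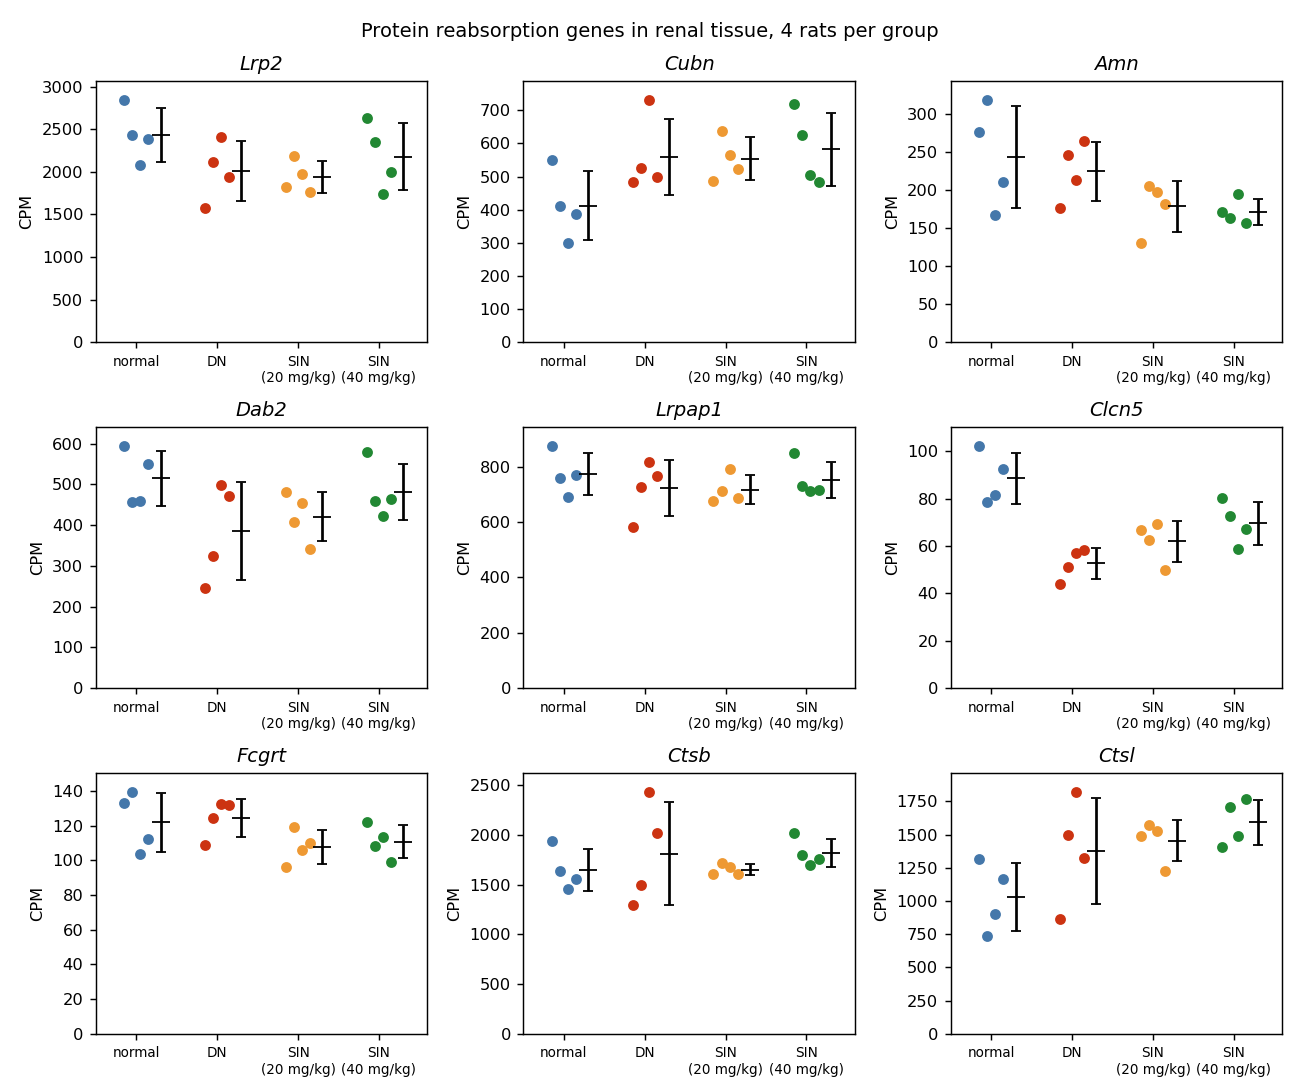
Level of each of the 9 genes in CPM (vertical axis from 0) in each rat, by group. Points are rats, and black bars are the group mean with its SD (n = 4). The 4 DN rats lie between 43.9 and 58.28 CPM for Clcn5, all below the normal rats at 78.42 to 102.1 CPM, whereas for the other 8 genes the DN and normal rats overlap.

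Megalin, the receptor with the widest range of ligands, was at 2838, 2427, 2077 and 2385 CPM in the 4 normal rats. In the DN group Lrp2 was at 1570, 2110, 2408 and 1939 CPM. The highest DN rats lay within the normal range, and DN replicate 1 lay below every other rat of the study. The log2 fold change was -0.27 (SE 0.15), with a 95% confidence interval from -0.61 to 0.07 and an adjusted p = 0.224 by edgeR.

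Cubilin, the receptor that binds albumin and the vitamin B12-intrinsic factor complex, stood at 549.5, 411.4, 299.3 and 388.3 CPM in the normal rats. In DN rats Cubn was at 484.2, 527.3, 730.1 and 499.2 CPM. Normal replicate 1 lay among the DN rats, and the other normal rats lay below all of them. Its log2 fold change was 0.45 (SE 0.20), with an interval from 0.01 to 0.89, an unadjusted p = 0.0463 and an adjusted p = 0.128 by edgeR. An unadjusted p under 0.05 was reached by 36.9% of all genes in this comparison, so Cubn did not stand out from the background.

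The ratio of the 2 receptors was higher in the STZ-treated rats, although neither receptor gene was called between DN and normal. The Cubn over Lrp2 ratio within a rat was 0.168 ± 0.0205 (SD, n = 4) in normal rats, 0.280 ± 0.0303 in DN rats, 0.286 ± 0.0136 at 20 mg/kg of SIN and 0.268 ± 0.0191 at 40 mg/kg. The highest normal rat was at 0.194 and the lowest of the 12 STZ-treated rats at 0.243, so these ranges did not overlap. This ratio was chosen after its values were seen and is given without a test. In the same comparison of 12 rats with 4, the ratio to Lrp2 lay wholly above the normal rats for 6.66% of 15210 genes and wholly below for 0.585%. Between the DN and normal groups alone, 17.2% of genes had such a higher ratio to Lrp2, and 2.91% a lower one. Lrp2, whose mean was lower in DN, is the denominator of all these ratios.

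Within groups the 2 receptors moved together. Over the deviations of the 16 rats from their group means in log2 CPM, Pearson's r between Lrp2 and Cubn was 0.88, the highest of the 36 pairs among the 9 genes. The rats share their libraries and scaling in every pair, and all 36 pairs had an r above 0 within groups, with a median of 0.64. In the DN group, replicate 1 was lowest for all 9 genes and replicate 3 highest for 7 of them. In the normal group, replicate 1 was highest for 7 genes and replicate 3 lowest for 6.

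**Figure D2:**
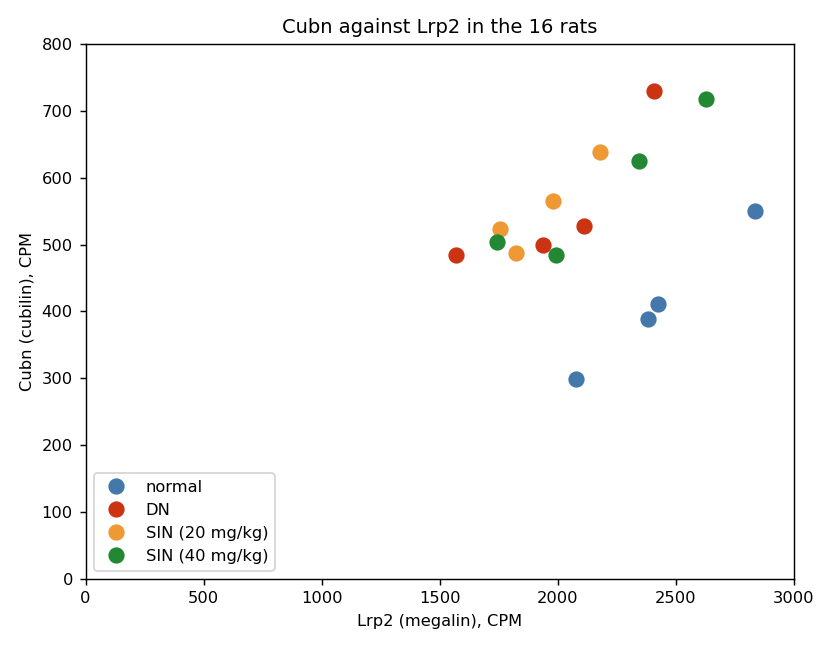
Cubn (vertical axis, CPM) against Lrp2 (horizontal axis, CPM), 1 point for each of the 16 rats, coloured by group. The normal rats form a lower band than the 12 STZ-treated rats: at a similar Lrp2 level, Cubn was higher in the STZ-treated rats, with ratios of 0.144 to 0.194 in the normal group against 0.243 or more in all others.

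The order of the DN rats followed the summed level of the 15 proximal tubule markers only in part. That sum was 21140 CPM in DN replicate 1, the lowest of the 16 rats, and 25409, 29156 and 34192 CPM in the other DN rats, against 26212 to 36918 CPM in the normal group. None of these 15 markers passed the adjusted threshold between DN and normal by edgeR, 3 had an unadjusted p under 0.05, and DESeq2 called 2. Pck1, the gluconeogenic enzyme, had the smallest p (log2 fold change -0.75, SE 0.24, adjusted p = 0.0501 by edgeR). Of the 15 log2 fold changes, 7 were above 0 and 8 below 0, with a median of -0.07. The part of proximal tubule content in the values of Lrp2, Cubn and the other receptor genes was not tested. DN replicate 3 also had the highest sum of 7 fibroblast and smooth muscle markers, 709.5 CPM against 344.9 to 398 CPM in its 3 group mates. Of those 7 markers, 2 were called higher in DN than in normal rats, Col1a1 and Pdgfrb, beside 8.74% of all genes tested. The log2 fold change was above 0 for 6 of the 7 and below 0 for 1, Dcn (127.3 CPM in normal and 90.68 CPM in DN rats on average). Without DN replicate 3 the Ctsb log2 fold change turned to -0.03, and Clcn5 was lower and passed the threshold with any 1 rat left out.

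The promoters of both receptors and of Clcn5 are shown. Clcn5 was the gene called between DN and normal, and the receptors, neither of which was called, form the ratio described above. The sequences run from 250 bases before to 50 bases after the RefSeq start, on the gene's own strand, 5′ to 3′, in the GRCr8 assembly, which is not the Rnor_6.0 build of the deposited counts. Capitals mark the GC box GGGCGG on either strand (read as CCGCCC on the other strand), a motif of Sp1-type factors. Lrp2 is at chr3:74754486-74754785 and Cubn at chr17:81501645-81501944, both on the minus strand. RefSeq lists 2 starts for Clcn5, at chrX:17857010-17857309 and chrX:17979730-17980029, on the plus strand.
Lrp2: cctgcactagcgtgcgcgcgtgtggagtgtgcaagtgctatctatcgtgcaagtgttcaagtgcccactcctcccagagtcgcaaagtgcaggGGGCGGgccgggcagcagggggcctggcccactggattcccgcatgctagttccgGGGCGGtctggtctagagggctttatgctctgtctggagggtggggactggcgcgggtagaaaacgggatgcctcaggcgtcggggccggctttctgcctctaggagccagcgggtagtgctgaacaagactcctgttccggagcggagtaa
Cubn: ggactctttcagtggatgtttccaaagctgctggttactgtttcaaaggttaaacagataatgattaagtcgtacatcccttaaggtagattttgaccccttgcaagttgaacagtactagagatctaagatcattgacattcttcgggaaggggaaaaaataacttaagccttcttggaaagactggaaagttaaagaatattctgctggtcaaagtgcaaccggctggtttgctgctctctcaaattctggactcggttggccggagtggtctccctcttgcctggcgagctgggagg
Clcn5, first start: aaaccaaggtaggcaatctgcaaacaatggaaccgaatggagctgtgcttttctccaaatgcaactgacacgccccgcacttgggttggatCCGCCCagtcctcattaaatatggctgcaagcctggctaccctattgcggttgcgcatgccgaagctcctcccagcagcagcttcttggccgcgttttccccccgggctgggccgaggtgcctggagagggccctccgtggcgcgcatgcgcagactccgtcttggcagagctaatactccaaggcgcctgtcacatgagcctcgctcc
Clcn5, second start: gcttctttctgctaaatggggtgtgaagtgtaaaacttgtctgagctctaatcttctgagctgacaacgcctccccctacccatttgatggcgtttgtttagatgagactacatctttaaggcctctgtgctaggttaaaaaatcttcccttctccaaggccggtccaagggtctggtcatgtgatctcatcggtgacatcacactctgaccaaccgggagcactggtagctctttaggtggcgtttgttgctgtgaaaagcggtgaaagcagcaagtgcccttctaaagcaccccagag

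The Lrp2 window held 2 GC boxes and 63.3% G and C, whereas the Cubn window held 0 GC boxes and 44.7% G and C. The first Clcn5 start had 1 GC box and 59.7% G and C, and the second had 0 and 49.0%. Over 33469 rat promoters of the same length, 33.1% held GGGCGG on either strand and the median G and C content was 51.7%. Of the 9 genes, 8 matched this table, and Amn, Lrpap1 and Ctsl also held GC boxes. The E-box CACGTG was found only in the Amn window (6.42% of all promoters), the letters GTTAAT of an HNF1 motif only in the Fcgrt window (7.45%), and TATAAA in none of them (14.2%). A match is a run of letters and says nothing of binding.

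Clcn5 encodes ClC-5, the exchanger whose loss causes Dent disease. It was at 102.1, 78.42, 81.6 and 92.37 CPM in the normal rats. It was at 43.9, 51.23, 56.99 and 58.28 CPM in the DN rats. Every DN rat lay below every normal rat, as for 13.1% of all genes tested. The log2 fold change was -0.75 (SE 0.12), with an interval from -1.02 to -0.47, and the adjusted p by edgeR was 0.00704, which placed Clcn5 at rank 276 of 15775 genes by p. This fitted value is a fold of 0.596 of DN over normal, with an interval from 0.493 to 0.720.

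The ratio of Clcn5 to Lrp2 was also lower in DN. It was between 0.0237 and 0.0301 in DN rats and between 0.0323 and 0.0393 in normal rats, and such a ratio wholly below the normal rats was seen for 2.91% of genes. In the SIN20 rats it was 0.0283 to 0.0365, and in the SIN40 rats 0.0304 to 0.0336. These ranges overlapped the normal one, and that of the SIN40 group lay wholly above that of the DN group, as for 1.02% of genes. This ratio too was chosen after its values were seen.

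ClC-5 is also made in the thick ascending limb and in intercalated cells of the collecting duct, so the markers of these segments are given beside it. Of 5 thick ascending limb markers, 2 were lower in DN: Egf (log2 fold change -1.12, adjusted p = 0.00524 by edgeR) and Umod, which encodes uromodulin (-0.77, adjusted p = 0.0154 by edgeR). The summed level of the 5 markers was 5059 to 6138 CPM in normal rats and 2674 to 4523 CPM in DN rats. In the SIN20 group it was 3656 to 3772 CPM, and in the SIN40 group 3011 to 3886 CPM. Of 9 distal tubule and collecting duct markers, 1 was lower in DN, Atp6v1b1, a proton pump subunit of intercalated cells (-0.47, adjusted p = 0.021 by edgeR). The median over these 9 markers was 0.09, with 6 of 9 values above 0. Their summed level was 1379 to 1997 CPM in normal rats and 1728 to 2593 CPM in DN rats, with ranges that overlapped. These markers also cover the distal tubule and other collecting duct cells, so their sum and median do not stand for intercalated cells. The part of these segments in the Clcn5 difference was not tested.

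Amnionless, the membrane anchor of cubilin, was at 277.2, 318.6, 167 and 211.5 CPM in the normal rats and at 176.6, 246.3, 213.1 and 264.9 CPM in the DN rats. The DN rats all lay within the normal range. In log2 terms the DN over normal value was -0.11 (SE 0.20), with an interval from -0.56 to 0.34. No change of either sign was detected (adjusted p = 0.731 by edgeR).

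The adaptor Dab2 was at 593.8, 455.9, 459.2 and 549.3 CPM in normal rats and at 245.2, 325, 497.6 and 470.8 CPM in DN rats. DN replicates 1 and 2 lay below every normal rat, while the other DN rats lay among them, and the DN group had the widest relative spread of Dab2 (31.2% of the mean, against 13.3% in normal rats). Over normal, Dab2 had a log2 fold change of -0.41 (SE 0.22, adjusted p = 0.193 by edgeR). Lrpap1, the chaperone of megalin, was between 690.3 and 875.4 CPM in normal rats and between 582.7 and 819.7 CPM in DN rats. Its log2 fold change was -0.09 (SE 0.13, adjusted p = 0.645 by edgeR). The Lrpap1 over Lrp2 ratio was 0.319 ± 0.0105 in normal rats and 0.363 ± 0.0259 in DN rats, and the groups did not overlap (0.332 at most against 0.340 at least), as for the 17.2% of genes above. This ratio was likewise chosen with its values known.

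Fcgrt was between 103.7 and 139.6 CPM in the normal group and between 108.9 and 132.6 CPM in the DN group. The DN rats lay inside the normal range, and the log2 fold change was 0.03 (SE 0.12, interval from -0.23 to 0.30, adjusted p = 0.865 by edgeR). Beta-2-microglobulin (B2m) is the light chain with which the neonatal Fc receptor and MHC class I molecules are assembled. B2m was at 753.9, 981.8, 806.7 and 734.1 CPM in normal rats and at 553.4, 651.5, 616.3 and 646.8 CPM in DN rats. It was lower in every DN rat than in any normal rat, as for 13.1% of all genes tested. The log2 fold change of B2m was -0.40 (SE 0.12, adjusted p = 0.0412 by edgeR), and 10.8% of all genes were called lower. Fcgrt, the partner of B2m, was at a similar mean in both groups. Ptprc, the pan-leukocyte marker, was lower in DN (-0.81, adjusted p = 0.0328 by edgeR), the single one of 11 leukocyte markers tested to pass. Of these 11 markers, 6 had a log2 fold change above 0 and 5 below 0, with a median of 0.02. The sum of all 12 leukocyte markers in the table, 1 of them too low to be tested, was 271.7 to 620.5 CPM in normal and 402.6 to 513.8 CPM in DN rats. The part of leukocytes in the B2m difference was not tested.

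Cathepsin B was at 1943, 1640, 1452 and 1553 CPM in normal rats and at 1290, 1494, 2433 and 2022 CPM in DN rats. The DN rats spanned the whole normal range and beyond it on either side (log2 fold change 0.14, SE 0.20, adjusted p = 0.635 by edgeR). Cathepsin L was at 1315, 736.6, 903.6 and 1162 CPM in normal rats and at 867.5, 1500, 1821 and 1327 CPM in DN rats. Apart from replicate 1, the DN rats lay above the normal ones, and the log2 fold change was 0.43 (SE 0.24, interval from -0.11 to 0.97, adjusted p = 0.227 by edgeR). The Ctsl over Lrp2 ratio was 0.304 to 0.487 in normal rats and 0.553 to 0.757 in DN rats, without overlap, as for 17.2% of genes. In all 12 STZ-treated rats the ratios of Ctsl and Ctsb to Lrp2 lay above those of every normal rat, as did that of Cubn and those of 6.66% of all genes. These ratios were also chosen after their values were seen.

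**Figure D3:**
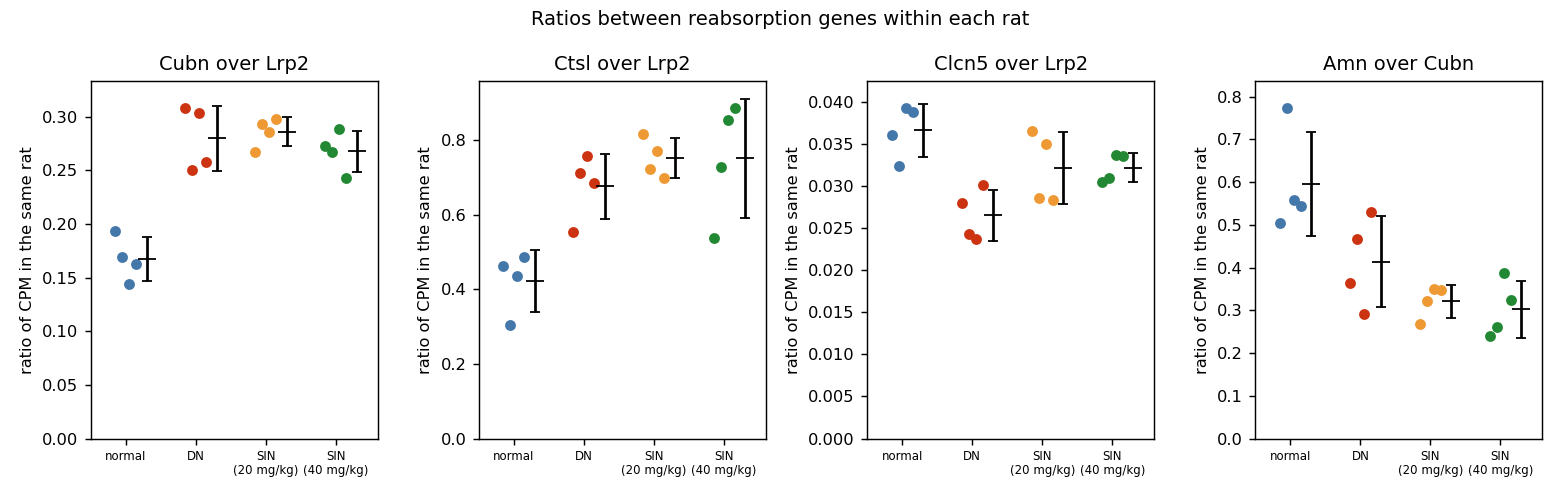
Ratios between pairs of reabsorption genes within each rat (vertical axis from 0, no unit), by group, with the mean and SD (n = 4) as black bars. Cubn over Lrp2 and Ctsl over Lrp2 are higher in all 12 STZ-treated rats than in any normal rat, and Clcn5 over Lrp2 is lowest in the DN group at 0.0237 to 0.0301.

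Per length, the protease genes stood highest and the exchanger and cubilin lowest. In CPM per kilobase of the gene length in the deposited table, the normal group means were 848 for Ctsb, 627 for Ctsl, 261 for Lrpap1, 197 for Dab2, 157 for Lrp2, 138 for Amn, 78.8 for Fcgrt, 36.3 for Cubn and 31.8 for Clcn5. Over the 4 normal rats, the ranges of Ctsb and Ctsl overlapped, as did those of Dab2 and Lrp2, of Lrp2 and Amn, and of Cubn and Clcn5. The other neighbours in this order did not overlap. In the DN group Cubn had 49.3 and Clcn5 18.9 CPM per kilobase, and these ranges no longer overlapped. In both SIN groups the mean of Ctsl lay above that of Ctsb, with ranges that overlapped.

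Between the SIN20 and DN groups, 0 of the 9 genes passed the adjusted threshold by edgeR. The background there was 0% of 15724 genes, although 2427 of them had an unadjusted p under 0.05 and DESeq2 called 220. None of the 9 had an unadjusted p under 0.05, which 15.4% of all genes had, and DESeq2 called 0 of the 9. The fold changes lay between -0.34 for Amn and 0.23 for Clcn5 on the log2 scale.

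Between the SIN40 and DN groups, again 0 of the 9 passed by edgeR, beside 0% of 15530 genes, of which 2657 had an unadjusted p under 0.05 and DESeq2 called 424. An unadjusted p under 0.05 was seen for 2 of the 9, against 17.1% of all genes, and DESeq2 called 0 of the 9. The first was Clcn5, at 80.04, 72.58, 58.65 and 66.93 CPM in the SIN40 rats. The lowest of these was just above the highest DN rat at 58.28 CPM, so the groups did not overlap, as for 6.43% of all genes in this direction. Over DN, Clcn5 had a log2 fold change of 0.40 (SE 0.12, interval from 0.13 to 0.68, unadjusted p = 0.00877 and adjusted p = 0.201 by edgeR).

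The second was Amn, at 171.7, 163.5, 195.2 and 156.7 CPM in the SIN40 rats. One of these rats lay within the DN range, and the others below it. The log2 fold change was -0.39 (SE 0.13, interval from -0.69 to -0.09, unadjusted p = 0.0153 and adjusted p = 0.218 by edgeR). At 20 mg/kg Amn was at 130.2, 205.6, 197.8 and 181.7 CPM, with a log2 fold change of -0.34 over DN (adjusted p = 0.354 by edgeR), and Clcn5 was at 66.57, 62.32, 69.22 and 49.71 CPM, with 0.23 (adjusted p = 0.403 by edgeR). The same 4 DN rats stand in both SIN comparisons and in that of DN with normal, so the values are not independent of each other.

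**Figure D4:**
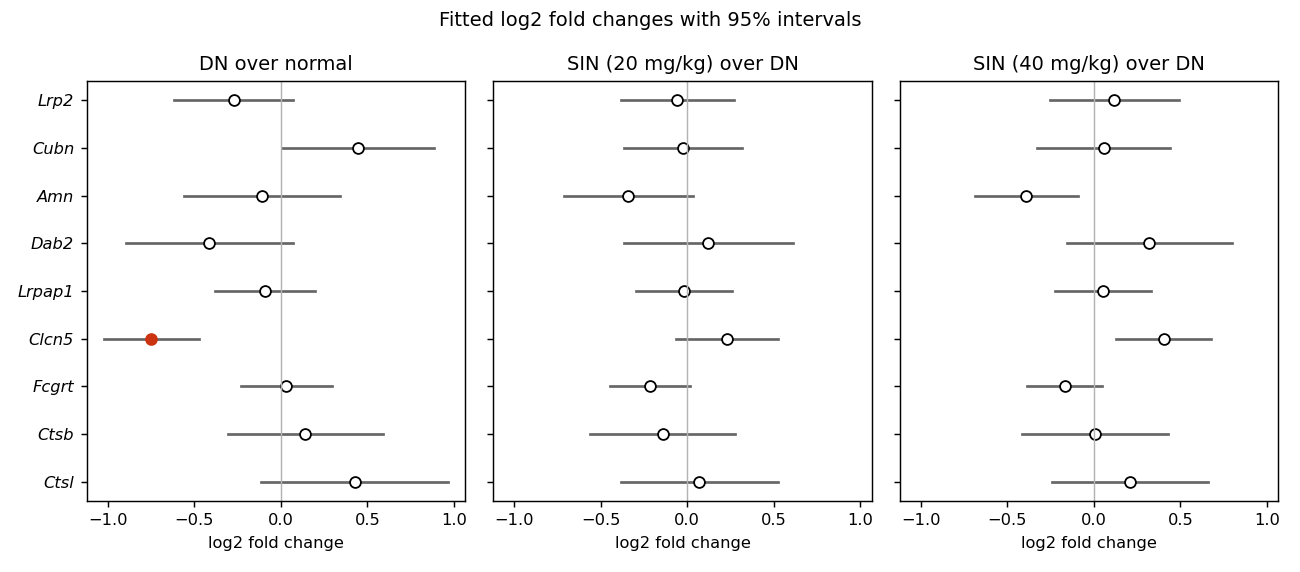
Log2 fold change of each of the 9 genes (horizontal axis) for DN over normal and for each SIN dose over DN, with lines for the 95% confidence interval of edgeR's fit (4 rats against 4). A filled red point has an adjusted p under 0.05 over all genes tested, and Clcn5 in DN over normal, at -0.75, is the only one.

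For the receptors themselves the SIN groups lay close to the DN group. Lrp2 was at 1825, 2181, 1979 and 1757 CPM in the SIN20 rats and at 2629, 2346, 1744 and 1992 CPM in the SIN40 rats. Its log2 fold change over DN was -0.06 (interval from -0.38 to 0.27) at 20 mg/kg and 0.12 (from -0.26 to 0.49) at 40 mg/kg. Cubn was at 487.2, 639, 565.1 and 523.6 CPM in the SIN20 rats and at 718, 625.6, 503.7 and 483.8 CPM in the SIN40 rats. Its log2 fold change over DN was -0.02 (from -0.36 to 0.32) and 0.06 (from -0.33 to 0.44). All 4 intervals held 0.

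The rest of the 9 genes did not pass the test against DN at either dose. Dab2 was 342.2 to 481.3 CPM in the SIN20 group and 421.4 to 578.9 CPM in the SIN40 group, with log2 fold changes of 0.12 and 0.32 over DN. Lrpap1 had -0.02 and 0.05, Fcgrt -0.22 and -0.17, Ctsb -0.14 and 0.01, and Ctsl 0.07 and 0.21. Ctsb had a narrower spread in the SIN groups (3.23% of the mean at 20 mg/kg and 7.64% at 40 mg/kg) than in the DN group (28.6%).

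Between the doses, SIN40 over SIN20, 0 of the 9 genes passed, and the background was 0.00639% of 15657 genes, which is 1 gene. None of the 9 had an unadjusted p under 0.05 by edgeR, beside 4.98% of all genes, and DESeq2 called 0 of them. The log2 fold changes were between -0.06 for Amn and 0.18 for Dab2, and all 9 intervals held 0. The widest of these intervals reached 0.31 to either side of its value.

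Compared with the normal group, the SIN20 group had 1 of the 9 genes past the threshold, against a background of 6.36% of 15877 genes (3.58% lower and 2.77% higher). None of the 9 reached a log2 fold change of 1 in size as well (2.48% of all genes), and 4 had an unadjusted p under 0.05 (20.8% of all genes). The gene called was Clcn5 again, with a log2 fold change of -0.52 (SE 0.13, adjusted p = 0.0404 by edgeR), and no SIN20 rat reached the lowest normal rat, as for 7.15% of genes. The call was lost without normal replicate 1, 3 or 4 and without SIN20 replicate 2, 3 or 4 (adjusted p up to 0.112 by edgeR), with the value between -0.57 and -0.43.

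The SIN40 group had 0 of the 9 past the threshold against normal by edgeR, with a background of 5.97% of 15735 genes (2.28% higher and 3.69% lower, and 2.47% when a log2 fold change of 1 in size was asked as well), while 4 of the 9 had an unadjusted p under 0.05 (22.9% of all genes) and DESeq2 called 1. The smallest adjusted p was that of Ctsl, which was at 1411, 1706, 1488 and 1768 CPM at 40 mg/kg. All 4 rats lay above the highest normal rat at 1315 CPM, as for 7.17% of genes in this direction. Over normal, Ctsl had a log2 fold change of 0.63 (SE 0.18, interval from 0.24 to 1.02, adjusted p = 0.065 by edgeR), and DESeq2 called it with an adjusted p = 0.00531. At 20 mg/kg Ctsl was at 1491, 1574, 1525 and 1228 CPM, with 0.50 over normal (adjusted p = 0.139 by edgeR), and 1 of these rats lay within the normal range. The other genes with an unadjusted p under 0.05 at 40 mg/kg were Cubn (0.50, adjusted p = 0.161 by edgeR), Amn (-0.51, adjusted p = 0.133 by edgeR) and Clcn5 (-0.35, adjusted p = 0.118 by edgeR).

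Cubilin lay above and its anchor below normal on average in both SIN groups, as also in DN (0.45 and -0.11 on the log2 scale). None of these values passed the adjusted threshold by edgeR. The Amn over Cubn ratio was 0.504 to 0.775 in normal rats, 0.292 to 0.531 in DN rats, 0.267 to 0.350 in SIN20 rats and 0.239 to 0.388 in SIN40 rats. Every SIN rat of either dose had a lower ratio than any normal rat, and the DN rats overlapped the normal ones. A ratio to Cubn wholly below the normal rats was seen for 14.5% of genes at 20 mg/kg and 15.7% at 40 mg/kg, and this ratio was chosen after its values were seen.

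Other genes of the route were read from gene lists in the comparison of DN with normal. These lists were chosen with earlier results of these data known. Of 28 genes for the clathrin coat and apical endocytosis, 3 were higher and 4 lower in DN, beside 8.74% higher and 10.8% lower over all genes tested, and the median log2 fold change was 0.10. The shares called in this list and in the next ones are read against the 19.5% of all genes called, and no list is set apart from it. The early endosome tether Eea1 was at 17.8 CPM in DN and 29.7 CPM in normal rats on average (log2 fold change -0.74, adjusted p = 0.0417 by edgeR). Fcho2, which starts coated pits, had -0.60, and the early endosome GTPase Rab5a had -0.50. Clathrin light chain Cltb was higher by 0.50 on the log2 scale (adjusted p = 0.0135 by edgeR).

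Of 24 genes for endosome acidification, the step in which ClC-5 works, 2 were higher and 4 lower in DN (19.5% of all genes were called), with a median of 0.10. Clcn4 and Clcn3, the exchangers most like Clcn5, were lower by the same test: Clcn4 had a log2 fold change of -0.64 (adjusted p = 0.0245 by edgeR) and Clcn3 had -0.36 (adjusted p = 0.0489 by edgeR). Atp6v1a, the catalytic subunit of the proton pump, had -0.45 (366.8 CPM in normal and 268.2 CPM in DN rats on average). Slc9a8, a sodium-proton exchanger, was higher, with 0.57 (adjusted p = 0.00747 by edgeR).

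Of 26 lysosomal proteases and membrane proteins, 4 were higher and 1 lower in DN, a share close to the 19.5% of all genes called, with a median of 0.12. Ctsd, the aspartic protease cathepsin D, was at 791.3 ± 42.1 CPM (SD, n = 4) in DN rats and 475.3 ± 91.5 CPM in normal rats. Its log2 fold change was 0.74 (adjusted p = 0.0105 by edgeR). Gaa, the lysosomal acid glucosidase, had 0.60, Ctsf 0.38 and Ctsk, a protease best known from osteoclasts, -0.75. Of 3 cathepsin inhibitors, none passed by edgeR or DESeq2 and none had an unadjusted p under 0.05, and the abundant one, cystatin C (Cst3), had 0.12. Of 9 other receptors of filtered proteins, 2 were higher. These were Havcr1, also known as KIM-1 (2.23, from 1.07 to 4.98 CPM on average, adjusted p = 0.0244 by edgeR), and the lipoprotein receptor Scarb1 (0.62, adjusted p = 0.048 by edgeR). Havcr1 is also a marker of tubular injury. Of 7 such markers tested, 3 were higher and 1 lower in DN, with a median of 0.88, beside 8.74% higher and 10.8% lower over all genes.

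In the SIN groups against DN, none of the genes of these lists passed the adjusted threshold by edgeR. At 40 mg/kg an unadjusted p under 0.05 was reached by 5 of the 28 endocytosis genes, 5 of the 24 acidification genes and 4 of the 26 lysosomal genes, beside 17.1% of all genes, and DESeq2 called 1, 2 and 1 of them. At 20 mg/kg the unadjusted counts were 8, 7 and 4, beside 15.4% of all genes, and DESeq2 called 1, 0 and 1. These genes went both ways. In the same order of lists, 3, 3 and 1 were higher than in DN at 40 mg/kg, and 2, 2 and 3 were lower. At 20 mg/kg 5, 2 and 0 were higher, and 3, 5 and 4 were lower. Cltb had -0.37 over DN at 40 mg/kg and -0.38 at 20 mg/kg, and Ctsd had -0.38 at 20 mg/kg. Against the normal group, Ctsd was still higher at 40 mg/kg (0.68, adjusted p = 0.0159 by edgeR).

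**Figure D5:**
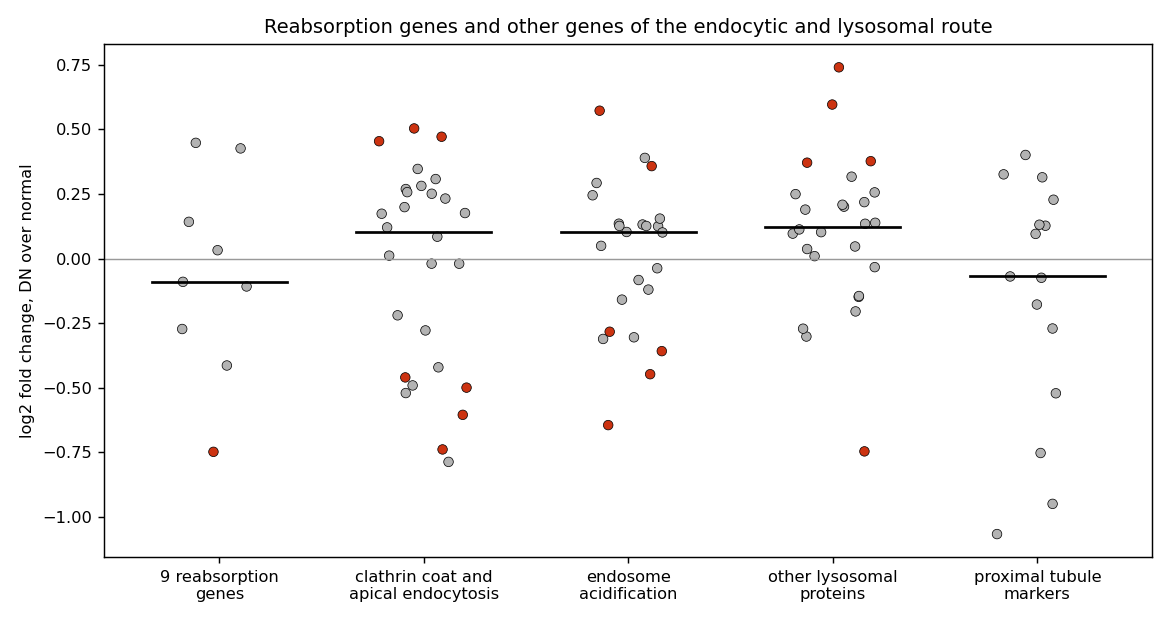
Log2 fold change of DN over normal (vertical axis) for the 9 reabsorption genes for the endocytosis, acidification and lysosomal lists and for the proximal tubule markers (horizontal axis), 1 point for each gene, with the list's median as a black line. Red points have an adjusted p under 0.05 over all genes tested. The endocytosis, acidification and lysosomal lists hold red points on either side of 0, the proximal tubule markers hold none, and the single red point of the reabsorption genes, Clcn5, lies at -0.75.

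The genes whose level followed that of Lrp2 most closely over the 16 rats were Cemip, a hyaluronan-degrading protein (Pearson's r 0.94 in log2 CPM, Spearman's rho 0.97), Ctsh, the lysosomal protease cathepsin H (0.87 and 0.80), Dpep1, a brush border dipeptidase (0.86 and 0.84), Slc66a1, a lysosomal amino acid exporter (0.85 and 0.76), and Dpp7, a lysosomal dipeptidyl peptidase (0.85 and 0.78). The rats come from 4 groups, and over deviations from the group means the values of r were 0.92, 0.82, 0.86, 0.80 and 0.86. Over all 15202 genes compared the median r was 0.01, and 5.59% of genes had an r above 0.5. Among the reabsorption genes, Lrpap1 was nearest to Lrp2 with 0.83, and Cubn had 0.25 over the 16 rats against 0.88 within groups. These correlations share libraries and scaling, and are descriptions without a test.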

How the data were processed

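RNA of 16 rat kidneys, 4 in each group, was analysed. The authors enriched mRNA with oligo(dT), trimmed reads with SeqPrep and Sickle, aligned them with TopHat to Rnor_6.0 and deposited estimated counts per gene without normalization. The submitters' processing notes also list Bowtie, RSEM and edgeR, with no role given. Of the nonzero values 74.3% were whole, and all were rounded to whole counts. The deposited table also gives gene lengths (another unit, in bases), used for levels per kilobase. Of the columns, 4 per-sample columns that no sample record names and 5 columns of means were not used.

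Counts were tested with edgeR 4.0.16 (glmQLFit and glmQLFTest, TMM normalization, filterByExpr on the 2 groups compared, Benjamini-Hochberg adjustment over all genes tested) for 6 comparisons in R 4.3.3. Log2 CPM added a prior count of 2. Alternatives were DESeq2 1.42.0, RLE normalization, a fit of unfiltered genes, a stricter filter (10 counts or more in all rats compared), a joint fit of the 16 rats, a replicate block, and each rat left out. The ratio means with each rat left out were added after seeing the data. The edgeR and DESeq2 fits were tried on simulated counts for DN over normal only, with changes larger than any of the reabsorption genes. Ratios, correlations and promoter steps were not simulated. Promoters and figures were made in Python 3.11.15.

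The 9 genes and the lists were chosen with earlier results of these data known. From each other list, genes past an adjusted p under 0.05 were named, at most the 4 with the largest fold change per comparison, or else at most the 2 with the smallest p, and for Lrp2 the 5 genes with the highest correlation. Some genes within the rule are left out. Labels give each sample a group and a number, and each sample was taken as a separate rat. The p-values thus set a difference between groups against the spread between rats. Counts do not tell near-identical copies or antisense genes apart. Positions on Rnor_6.0 were not used here.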

Additional observations from a re-analysis of the deposited data

Results flagged for a closer look

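One result of the 48 combinations of gene or ratio and group checked stood out by Dixon's test for a sample far from the others, and chance alone flags about 1 in 20. In the SIN40 group, Lrpap1 was at 849.6 CPM in replicate 1 and between 713 and 730.8 CPM in the other rats. The gap to the nearest of them was 0.869 of the range of the group, above the 95% critical value for 4 samples. The same rat was the highest of its group for 7 of the 9 genes, and its sum of 15 proximal tubule markers was 35638 CPM, against 24630 to 27186 CPM in the other rats of the group. Their part in the Lrpap1 value was not tested.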

How the results depend on the processing

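With 4 rats in a group, the 95% intervals of the 9 genes reached 0.20 to 0.54 on the log2 scale to either side of their values, which limits what could be detected. Each value of these genes rested on at least 992 counts, so the spread between rats and not depth set this limit. Of 756 alternative fold changes of the 9 genes, 705 kept their direction and side of the threshold, 7 lost it, 5 gained it and 39 reversed. All 64 ratio means and all 72 levels moved by less than 1 SD. Clcn5 in DN over normal was called in 14 of 14 alternatives.

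The number of the 9 genes called in SIN20 over normal moved from 1 to 2 with DESeq2 (Clcn5 and Ctsl), to 0 with the replicate block, and to 0 to 1 with a rat left out. In SIN40 over normal it moved from 0 to 1 with DESeq2 (Ctsl), to 1 with the replicate block (Cubn, adjusted p = 0.0247 by edgeR), and to 0 to 1 with a rat left out (Ctsl without normal replicate 1, Amn without normal replicate 3). The cause was not tested. The replicate numbers did not pair the rats: 2 of 24 same-numbered pairs had deviations correlated over 0.1 (r from -0.27 to 0.30), and 4 of 16 rats correlated best with their own number.

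Over all genes, DN over normal called 3074, against 1325 with the replicate block and 769 to 3781 with a rat left out. SIN20 over DN called 0, against 220 with DESeq2, 2 with no filter, 2 with at least 10 counts and 13 with all 16 rats in one fit. SIN40 over DN called 0, against 424 with DESeq2, 8 with all 16 rats in one fit and 0 to 4 with a rat left out. SIN40 over SIN20 called 1, against 17 with DESeq2, 0 with all 16 rats or the block, and 0 to 5 with a rat left out. SIN20 over normal called 1009, against 1726 with DESeq2 and 551 to 1230 with a rat left out, and SIN40 over normal 940, against 1761 and 462 to 1016.

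The 39 reversed values were at most 0.147 in size, with adjusted p of at least 0.589 by edgeR or DESeq2. Ctsb in SIN40 over DN reversed to -0.010 with DESeq2 and with RLE normalization, and to -0.011 with all 16 rats in one fit. The other reversals came with a rat left out, with these ranges. In DN over normal, Amn ran from -0.25 to 0.038, Fcgrt from -0.037 to 0.094, Lrpap1 from -0.16 to 0.0039 and Ctsb from -0.035 to 0.28. In SIN20 over DN, Dab2 ran from -0.046 to 0.27, Ctsl from -0.10 to 0.24, Lrp2 from -0.16 to 0.044, Cubn from -0.10 to 0.13, Lrpap1 from -0.11 to 0.048 and Ctsb from -0.28 to 0.039. In SIN40 over DN, Ctsb ran from -0.15 to 0.18, Lrp2 from -0.0029 to 0.22, Cubn from -0.058 to 0.21 and Lrpap1 from -0.057 to 0.12. In SIN40 over SIN20, Fcgrt ran from -0.013 to 0.091, Amn from -0.19 to 0.011, Cubn from -0.046 to 0.15 and Lrpap1 from -0.00061 to 0.11. In SIN20 over normal, Ctsb ran from -0.057 to 0.096, and in SIN40 over normal, Lrpap1 from -0.11 to 0.024.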
